A study of Mus musculus with 3 samples.

Results

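The Mir5099 locus is the place on mouse chromosome 12 to which the miRNA miR-5099 is annotated. Its members were chosen by measured reads: they are the alignments on the plus strand whose 5′-start fell between chr12:37542780 and chr12:37542910 of the mm9 genome, a window drawn around the reference start of miR-5099 and around the start that carried most reads. This window held 206 distinct alignments, defined by start, length and mismatches, of 2324206 in the series, and these began at 13 positions. Small RNA was sequenced from 3 libraries of MIN6, an insulin-secreting cell line derived from a mouse insulinoma, all grown in medium with 25 mM glucose. The sample titles name no other treatment and no genotype. All libraries share this condition, so there is no second condition to compare. The study's methods call the libraries biological replicates, without saying how the cultures were separated. The Mir375 hairpin, a defining miRNA of beta cells, was present at 354247 ± 18597 RPM (reads per 1000000 mapped reads; mean ± SD, n = 3) at its most abundant start. At its more abundant gene copy, miR-7a-5p, another miRNA abundant in islets, was present at 210.4 ± 22.9 RPM (SD, n = 3). This is a divided count, since 7.68% of its reads had a single locus and another copy held 194.5 RPM. The libraries held 9269795, 10816006 and 10218743 mapped reads.

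In the usual route, a miRNA is cut from a hairpin-shaped precursor, first by Drosha in the nucleus and then by Dicer in the cytoplasm, which leaves a duplex of the 5p and 3p arms. One strand is loaded into an Argonaute protein and recognises target mRNAs mainly through its seed, bases 2 to 8 from the 5′-end. A form that begins upstream or downstream of the reference position, a 5′-shifted isomiR, has another seed and can thus have other targets. By the naming used for such forms, miR-5099-2 begins 2 bases upstream of the reference miR-5099. Small RNA libraries also hold fragments of abundant longer RNAs, such as the precursors of ribosomal RNA.

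The hairpin and the reads are shown first, because the differences between them carry the result. RefSeq places the Mir5099 hairpin at chr12:36816205-36816278 on the plus strand of GRCm38.p6. In GENCODE M21 no other gene overlaps it, and it lies between Ispd, the nearest protein-coding gene upstream, and the long non-coding RNA gene Gm40394 downstream. The deposited alignments use mm9, so the hairpin was placed on them from the mismatches alone. Only a hairpin start at chr12:37542792, and thus an end at chr12:37542865, contradicted none of the 23 positions with a mismatch, and the next best placing contradicted 3. Capitals in the hairpin mark the 25 bases that miR-5099-2 reads covered, and capitals in the reads mark bases that differ from the genome. Where no mismatch was recorded, the letter is that of the hairpin.
Mir5099 hairpin: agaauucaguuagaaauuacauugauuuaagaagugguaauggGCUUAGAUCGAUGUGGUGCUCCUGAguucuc
hairpin stretch: gcuuagaucgauguggugcuccuga
reads of 25 nt: UcuuagaucgauguggugcuccGga
reads of 24 nt: UcuuagaucgauguggugcuccGg
reads of 23 nt: UcuuagaucgauguggugcuccG
reads of 22 nt: Ucuuagaucgauguggugcucc
reads of 21 nt: Ucuuagaucgauguggugcuc
reads of 20 nt: Ucuuagaucgauguggugcu
These 6 forms, of 68 at this start, made up 97.5% ± 0.102 (SD, n = 3) of the miR-5099-2 reads. Counted from 1 at the 5′-end of miR-5099-2, they differ from the hairpin by G1U and, where they are long enough, by U23G.

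miR-5099-2 held nearly all reads of the locus, a description of the values by which it was selected. The locus had 4399, 3880 and 4225 reads in replicates 1, 2 and 3, of which 4226.5, 3687 and 4036 began at miR-5099-2. The shares were 96.1% in replicate 1, 95.03% in replicate 2 and 95.5% in replicate 3, with 95% Wilson intervals of 95.5 to 96.6%, 94.3 to 95.7% and 94.9 to 96.1%. The intervals, here and elsewhere, cover counting error only. The reference start had 35.5, 43 and 43 reads, so miR-5099-2 was 119, 85.7 and 93.9 times more abundant. Scaled by depth, miR-5099-2 stood at 456, 341 and 395 RPM, a mean of 397 ± 57.6 RPM (SD, n = 3). The 3 libraries differed by more than counting error, with intervals of 442 to 470, 330 to 352 and 383 to 407 RPM that did not overlap. Replicate 1 was highest and replicate 2 lowest.

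The remaining reads fell on a few neighbouring starts. The start 1 base upstream of the reference had 15, 29 and 25 reads. Starts at +1 and +3 from the reference had 40.3, 46 and 46.3 reads and 49.4, 49.2 and 51.5 reads. The starts at +1 and +3 and the reference start were the only others to hold 1% of the locus reads in any library. The start at +2 lies between +1 and +3 and had no more than 1 read in any library. At +4 there were 27.6, 17.4 and 17.9 reads. Upstream of miR-5099-2, reads were found only at the adjacent base, with 0, 5 and 2 reads, and these carried the same U in place of the genomic G at their second base. More than 6 bases downstream of the reference start, 1.33, 0.667 and 0.167 reads were spread over 3 starts. The last of them, 70 bases downstream, had 0.5, 0 and 0 reads, and the nearest start outside the window, at 82 bases, had 0.5, 0.5 and 0 reads. On the upstream side the nearest start outside the window was 21429 bases away and had 0, 0 and 1 reads. No read was placed on the minus strand across the hairpin.

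The first base of miR-5099-2 did not match the genome. U was read at base 1 in 4209.5, 3670 and 4011 reads, or 99.5% ± 0.112 (SD, n = 3) of the reads at this start, where the genome has G. The genomic G was read in 10, 12 and 24 reads. Only 2, 1 and 4 reads of miR-5099-2 aligned exactly, compared with the total of 4226.5, 3687 and 4036. Over the whole locus, exact alignments made up 2.10%, 2.12% and 2.02% of the reads. Because the authors sought mismatched reads only near exact ones, the exact reads, of which 7, 6 and 10 had a single locus, opened the window in which miR-5099-2 could be counted.

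The second difference lay near the 3′-end. Of the miR-5099-2 reads that reached base 23, 2802 of 2809 in replicate 1, 2064 of 2068 in replicate 2 and 2434 of 2437 in replicate 3 carried G there, a mean of 99.8% ± 0.0632 (SD, n = 3). The U of the hairpin was read 2, 1 and 2 times. Reads from the other starts of the locus showed the same letter, with G in 75.3 of 76.2, 102.2 of 102.2 and 98.8 of 99.1 reads that covered the position. Both U23G and G1U were present in 99.2% ± 0.12 (SD, n = 3) of the miR-5099-2 reads of 23 nt or more. Between these positions the reads followed the hairpin. From base 2 to base 19, the mean share of reads with a mismatch was at most 0.00904% at any base. The aligner bears on this value: it allowed 1 mismatch outside the 3′-end, which G1U already used, so reads with another mismatch in the body could not be placed.

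**Figure D1:**
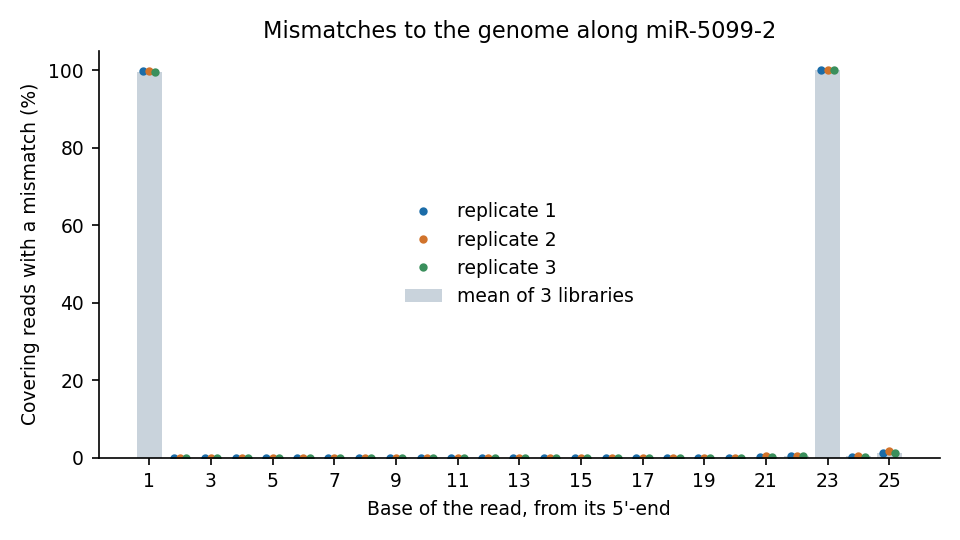
Share of the miR-5099-2 reads covering each of bases 1 to 25 that differ from the genome, in percent, against the base counted from the 5′-end; the few longer reads are not shown past base 25, and bars are means of 3 libraries and points are the libraries. Base 1 and base 23 stand at 99.6% and 99.9%, while none of the others among these 25 bases exceeds 1.37%.

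The read lengths formed a pair of peaks. Reads of 25 nt were the most common length, with 1844, 1459 and 1565 reads or 43.6%, 39.6% and 38.8% of miR-5099-2. Beside it, reads of 24 nt stood at 18.4%, 13.1% and 17.5%. The other peak was made up of reads of 21 nt, at 15.1%, 21.3% and 19.4% and thus above 24 nt in replicates 2 and 3, and of 20 nt, at 13.6%, 17.4% and 14.4%. In between, reads of 22 nt, a length common for miRNAs, contributed 4.74% ± 0.437 (SD, n = 3), and reads of 23 nt 3.75% ± 0.553 (SD, n = 3). The mean length was 23.1 ± 0.179 nt (SD, n = 3).

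**Figure D2:**
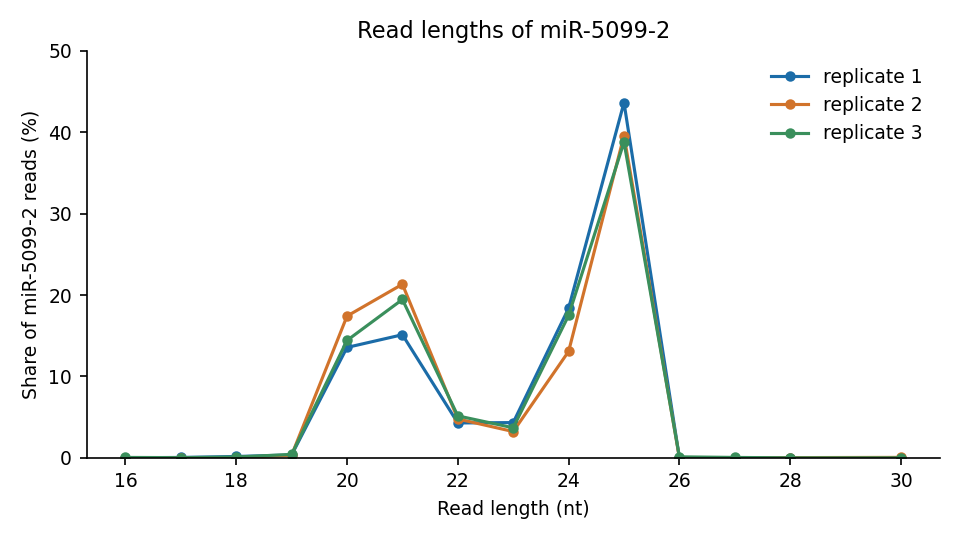
Share of the miR-5099-2 reads by read length from 16 to 30 nt, in percent, with a line for each of the 3 libraries. All libraries peak at 25 nt and again at 21 nt, and the share at 25 nt is highest in replicate 1, at 43.6%.

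The balance of the peaks differed between libraries. Reads of 24 to 25 nt made up 62.0%, 52.6% and 56.3%, and reads of 20 to 21 nt 28.7%, 38.7% and 33.9%, so the ratio was 2.16 in replicate 1, 1.36 in replicate 2 and 1.66 in replicate 3. Replicate 1, with the highest RPM of miR-5099-2, thus also had the highest share of long reads, and replicate 2 had the lowest of both. With 3 libraries of the same condition this was not tested.

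The upper length limit coincides with a limit of the alignment. A read with G1U and U23G could be aligned up to 25 nt, where base 23 is among the last 3 bases in which the authors allowed mismatches at the 3′-end. A longer read would have had 2 mismatches in its body. Reads of 26 nt or more numbered 5, 8 and 17, and of these 0, 0 and 2 had a mismatch at base 1. Reads that did not need G1U were often longer. Among reads from the starts at -1, 0 and +1 that reached the same position, 46.9%, 59.7% and 54.7% ended beyond the last base of the 25-nt form, and the longest had 36 nt. How many longer miR-5099-2 reads the libraries contained cannot be seen from these alignments.

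Among the reads that could be aligned, the last base seldom differed from the genome once U23G was set apart. A base added to the 25-nt form would take it past the alignment limit described above. Additions to this most common form could thus not be counted. A mismatching last base, the mark of a non-templated addition, was found in 231, 176 and 199 reads, or 5.06% ± 0.363 (SD, n = 3). Of these, 178, 117 and 148 were 23-nt reads that ended on the substituted G. The others came to 1.37% ± 0.197 (SD, n = 3). They ended in A at 0.608%, in G at 0.426%, in C at 0.179% and in U at 0.159% of the miR-5099-2 reads. A count of mismatches anywhere in the last 3 bases gave 61.4% ± 5.20 (SD, n = 3), since it included U23G in reads of 24 and 25 nt.

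The seed differs between the shifted and the reference form. Capitals mark bases 2 to 8 of each form, the first as read at 21 nt and the second as the 20 hairpin bases from the reference start.
miR-5099-2: uCUUAGAUcgauguggugcuc
miR-5099 reference: uUAGAUCGauguggugcucc
Neither seed was present in any of the 1738 mature miRNAs of the RefSeq table, which holds no mature entry for miR-5099 itself, and the substitution G1U lies outside the seed. The reference start, with 35.5, 43 and 43 reads, had as its most common forms a 23-nt read with counts of 7, 4.5 and 8 and a 22-nt read with counts of 6.5, 4.5 and 4.5, and both also carried the G of U23G.

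No read was placed on the other arm. In the minimum free energy structure computed with RNAfold (-26.6 kcal/mol), 22 of the 25 bases covered by miR-5099-2 were paired, all with bases between 6 and 31 of the hairpin, so miR-5099-2 lies on the 3p side. Not a single read had its centre in the 5p side in any library. For exact reads this allows up to 3 reads, or 0.324, 0.277 and 0.294 RPM and at most 0.0682%, 0.0773% and 0.0710% of the locus. The authors placed mismatched reads only up to 5 nt beyond exact ones, and no exact read of the locus began upstream of miR-5099-2. A 5p read with a mismatch could thus not be placed. Whether such reads were in the libraries cannot be seen from these alignments. Of the 122 other hairpins with an abundant named start, 6 had 0 reads on the other side in all libraries and 8 had fewer than 3 in each. The median share of the other side among the 122 was 1.20%. The 6 were Mir146b, Mir181a-2, Mir181b-2, Mir378d, Mir484 and Mirlet7a-2, named here after their values were seen. Several starts were named miR-146b-5p, and only 1.35 to 1.37% of their reads had a single locus. The naming of Mir146b, and with it the count of 6, is therefore uncertain. Single-locus reads were also few at Mirlet7a-2, with 1.56%, and at the copies of miR-181a-5p, with 7.48%, and miR-181b-5p, with 30.6 to 39.3%. The reads of these hairpins were thus mostly shared with other loci, which limits the comparison. At miR-378d and miR-484 the single-locus shares were 69.1% and 100%.

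miR-5099-2 itself was assigned to chromosome 12 alone, while the rest of the locus was not. The authors split a read that fitted several places equally well, so fractional counts mark shared reads. Shared reads made up 0.5, 1 and 2 of the miR-5099-2 reads. Of the reads at all other starts, 154 of 173, 151 of 193 and 153 of 189 were shared, or 89.0%, 78.2% and 80.9%. At the reference start only 2.47% of the reads had a single locus. The reads of +3 and +4 were mainly exact alignments of 15 to 17 nt of which none had a single locus.

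The loci that shared these reads were found by searching for alignments of the same length with the same counts in every library. The Mir5099 locus had 48 shared alignments with more than 1 read over the libraries. A locus on the plus strand of chromosome 1, from chr1:44255527 to chr1:44255533, matched 46 of these, with 145, 140 and 142 reads. A locus on the plus strand of chromosome 17, from chr17:39979941 to chr17:39979946, had 27 matching alignments, with 104.9, 99.3 and 98.2 reads. Another, on the minus strand of chromosome 11 from chr11:103934447 to chr11:103934450, had 12. The chromosome 1 locus had only 2, 2 and 0 reads at the place of miR-5099-2.

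The chromosome 17 locus carried the substituted letter of U23G as its own. The most abundant form from the +1 start of Mir5099, printed here with the substituted base in capitals, had 11.7, 11.7 and 9 reads.
reads of 22 nt from +1: uagaucgauguggugcuccGga
At chromosome 17 the same reads mismatched at their first base and matched at the place of U23G. Of the 5429, 3171 and 3682 reads from +1 to +5 of the chromosome 17 locus that covered this place, 0.833, 0 and 0.250 had a mismatch there. The other side of the difference, G1U, could not be compared, because no read at chromosome 17 began at or upstream of the place of the reference start.

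Reads at the chromosome 17 locus began further downstream. In the frame of the reference start of miR-5099, the +4 start had 4252, 2229 and 2684 reads at chromosome 17 and 27.6, 17.4 and 17.9 at Mir5099. At +3 the chromosome 17 locus had 943, 795 and 858 reads. Of its reads at +4, 92.6% aligned exactly and 99.3% had a single locus. This start stood at 459, 206 and 263 RPM, compared with 456, 341 and 395 RPM for miR-5099-2, so replicate 1 was highest and replicate 2 lowest at both. Of the named starts nearest to miR-5099-2 in level, miR-101a-3p-1 and miR-138-5p also had this order and miR-425-5p did not. The shared order was not tested. The lengths at the +4 start of chromosome 17 differed from those of miR-5099-2. There, 45.0%, 20.7% and 35.3% were of 18 to 19 nt, and 14.4%, 23.7% and 20.1% of 20 to 25 nt. A further 20.4%, 37.8% and 26.7% were of 38 to 41 nt, up to the longest reads that were aligned.

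**Figure D3:**
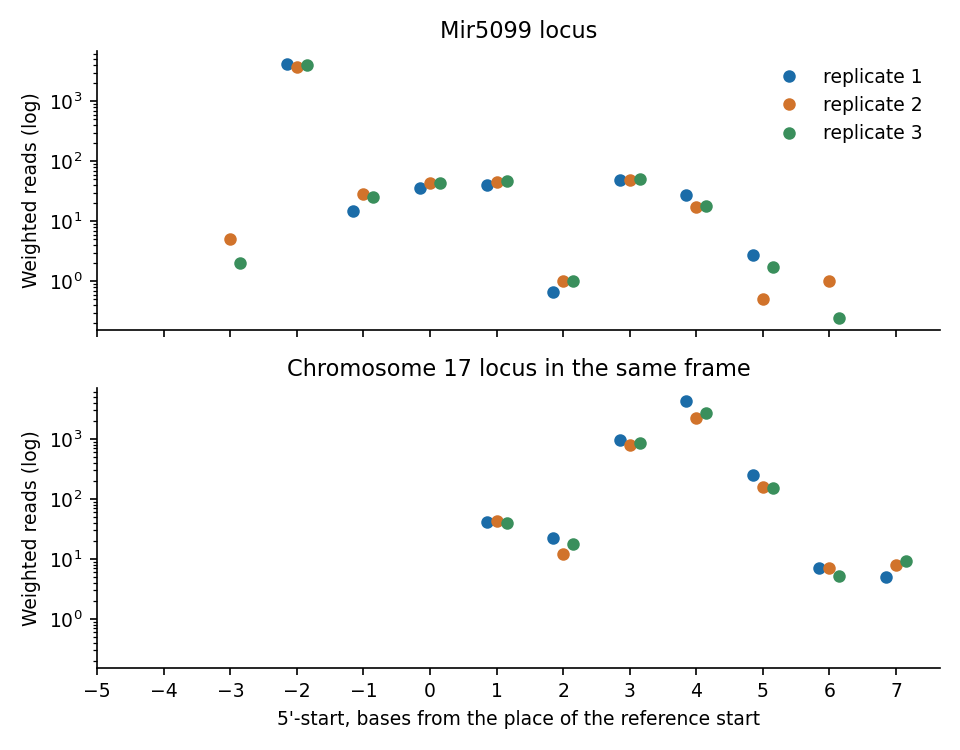
Weighted reads on a log axis against the 5′-start, in bases from the place of the reference start of miR-5099, at Mir5099 (top) and at the chromosome 17 locus laid on it by the shared reads (bottom); points are the 3 libraries and starts with 0 reads are not drawn. The highest points are at -2 for Mir5099, from 3687 to 4226.5 reads, and at +4 for chromosome 17, from 2229 to 4252 reads.

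An annotated transcript begins within this stretch. The GENCODE transcript Gm26917-202, of the long non-coding RNA gene Gm26917, lies at chr17:39843013-39846341 of GRCm38 on the plus strand. Placed on the deposited alignments by mismatches alone, it began at chr17:39979958 of mm9 with 0 of 547 informative positions contradicted, and the next best placing contradicted 110. It thus begins 18 bases downstream of the place of the reference start. Its first 30 bases are printed with the 5 that are also the last 5 bases of the 25-nt miR-5099-2 reads in capitals.
Gm26917-202: CCGGAgttctcttcgggccagggcctaagc
Over the 11 bases that the hairpin extends beside this transcript the sequences differ at 1 base, the place of U23G, where the transcript has G. Downstream GENCODE annotates the rRNA gene CT010467.1 on the minus strand, opposite to the reads. From background knowledge, this stretch of chromosome 17 is known as the place where the mouse assembly holds a copy of the 45S precursor of ribosomal RNA. The reads from the chromosome 17 stretch, from chr17:39979941 to chr17:39985761, came to 50476, 52920 and 50085, or 5445, 4893 and 4901 RPM. The genome of the build used for the alignments was not searched for miR-5099-2 sequences, so whether the reads placed at Mir5099 were made from chromosome 12 was not tested.

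Among abundant 5′-starts, miR-5099-2 was of middling expression. With 1000 reads in every library as the limit, 387 other starts were abundant, of which 163 were named as miRNAs by their mismatches. By mean RPM miR-5099-2 ranked 76th among the 164 named starts, itself included, and 138th among all 388. Its nearest neighbours in level were miR-425-5p at 396 ± 38.1 RPM, miR-101a-3p-1 at 395 ± 23.8 RPM and miR-138-5p at 402 ± 29.7 RPM (SD, n = 3). Their means differed from that of miR-5099-2 by far less than its SD of 57.6 RPM. The miR-138-5p value is that of 1 gene copy, where only 4.89% of the reads had a single locus, and the other copy held 389 RPM of divided reads. Its coefficient of variation over the replicates, 14.5%, was at or above that of 146 of the 163 named starts, whose median was 7.38%.

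Its mismatches at base 1 were unlike those of the other abundant starts, a comparison chosen after the values had been seen. Base 1 mismatched in 99.6% ± 0.186 (SD, n = 3) of the miR-5099-2 reads, while the median of the 387 other starts was 0.202% and the highest was 55.9%, at an unnamed start on chromosome 5. Among the named starts the highest values were 6.73% at miR-27b-3p-1 and 3.52% at miR-127-3p-1. In the share of exact alignments, 0.0579%, miR-5099-2 was below all 163 named starts, which ranged from 10.4% at miR-148b-3p to 96.5%. Among all 387, 24 starts had as low a share, 64 had under 1% and 67 had under 10%, none of them named. A low share of exact alignments was thus not particular to miR-5099-2 among the unnamed starts.

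**Figure D4:**
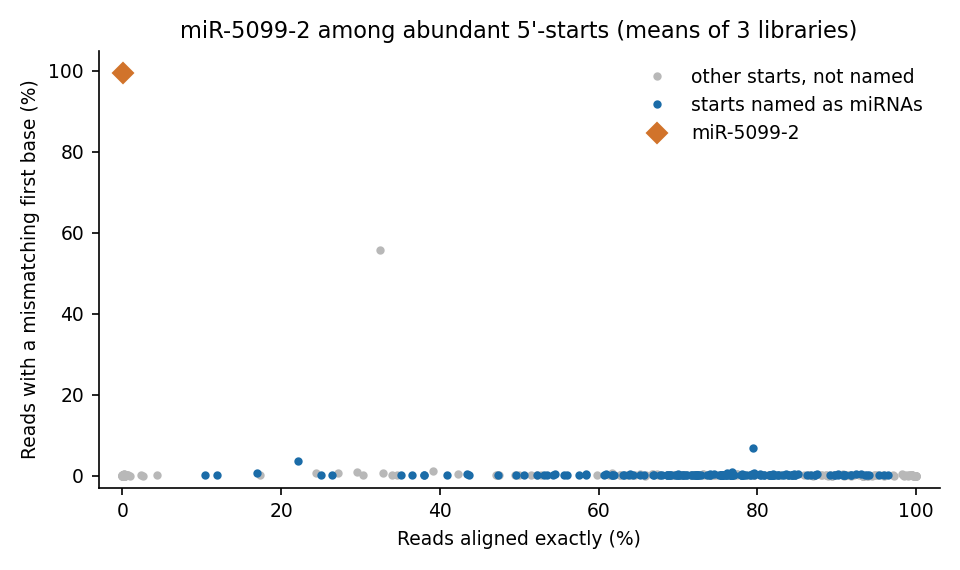
Share of reads with a mismatching first base against the share of reads aligned exactly, both in percent and as means of 3 libraries, for the 388 5′-starts with at least 1000 reads in every library. miR-5099-2 lies at 99.6% and 0.0579%, and the next highest start on the vertical axis is at 55.9%.

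In length, miR-5099-2 was spread more widely than most. The share of its most common length, 40.7% ± 2.60 (SD, n = 3), was below that of 350 of the 387 other starts and of 151 of the 163 named starts, whose median was 70.0%. Its mean length of 23.1 nt was at or above that of 138 of the 163 named starts. The share of reads within 10 bases that began at miR-5099-2, 95.6% ± 0.530 (SD, n = 3), was at or above that of 53 of the 163 named starts, whose median was 98.4%. A mismatching last base was less frequent than at 102 of the 163. These positions are descriptions, because miR-5099-2 was selected on its reads. Its reads with both G1U and U23G could be aligned only up to 25 nt. Its values for length and for the last base leave out any longer ones.

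The named starts most like it in length distribution were miR-541-5p, miR-182-5p, miR-425-5p, a start of Mir23b and miR-342-3p. Likeness was measured as the share of reads that would have to change length for the distributions to be equal, averaged over 3 libraries, and it was 0.290, 0.380, 0.413, 0.486 and 0.489, on a scale where 0 is equal and larger is less alike. The closest, miR-541-5p, also had 25 nt as its most common length, at 44.1%, and stood at 4847 ± 251 RPM (SD, n = 3). In contrast to miR-5099-2, it aligned exactly in 65.8% of its reads and mismatched at base 1 in 0.181%. None of the 5 had more than 0.258% of reads with a mismatch at base 1. The length limit of reads with G1U and U23G applied to miR-5099-2, so any longer reads of it could not be compared.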

How the data were processed

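Small RNA was sequenced from 3 MIN6 libraries (25 mM glucose). The deposited values are expected counts, giving for every distinct alignment its reads. The authors trimmed adaptors with cutAdapt, mapped reads of 14 to 41 nt exactly with Bowtie (reads with more than 20 loci not placed), joined regions up to 65 nt apart, widened these by 5 nt on each side, and placed the other reads in them with 1 mismatch in the body and up to 3 at the 3′-end (2 for reads of 19 to 23 nt). Reads with equally good loci were divided among them. The build in the submitters' processing notes is mm9. Replicates were not pooled.

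Exact alignments end 1 base early and were corrected. Reads were summed by start, length and mismatches with Python 3.11.15, numpy 2.4.6 and pandas 2.3.3, and RPM are reads per 1000000 mapped reads. Hairpins (1005 from RefSeq, GRCm38.p6) were matched to starts by the bases that mismatches exclude, at 20 bits or more on the same chromosome and strand. Reversed hairpins named 0 starts, and the naming was tested on simulated data. Loci sharing reads had at least 5 alignments of equal length and counts. The hairpin was folded with RNAfold 2.7.2, intervals are 95% Wilson intervals (scipy 1.17.1), and plots were made with matplotlib 3.10.9. Reads carry no molecular identifiers, so intervals and the floor of 3 reads cover counting error only.

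Described by rule were miR-5099-2, the reference start, starts with at least 1% of the locus reads in any library, the 5 named starts with 1000 reads in every library most alike in length, the 3 nearest in RPM, and miRNAs sharing either seed. The members, lists and settings were chosen with earlier results of these data known. No test was made, because the libraries share 1 condition. Alternatives were exact or single-locus reads, other denominators, lengths and read minimums, and leaving out each replicate.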

Additional observations from a re-analysis of the deposited data

How the results depend on the processing

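No paired analysis was possible because there is 1 group. Leaving out each replicate in turn kept miR-5099-2 at 368 to 426 RPM, its share of the locus at 95.3 to 95.8%, the share of 25 nt at 39.2 to 41.6%, the mismatching last base at 4.85 to 5.20% and the other arm at 0 reads. Exact alignments alone removed miR-5099-2 almost entirely, since 2, 1 and 4 of its reads were exact: it fell to 0.233 RPM and 2.69% of the locus, with 0% of 25 nt. On these few reads its percentile among 377 other abundant starts became 100 for the share of the modal length, 24.7 for mean length, 2.12 for the share within 10 bases and 97.1 for the coefficient of variation, and 100 for a mismatching last base, where every start has 0 by construction. Single-locus reads raised its share of the locus to 99.2%, and exactly aligned reads as the denominator gave 555 RPM. Mismatches in the last 3 bases gave 61.4% in place of 5.06%.

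The percentiles depended on which starts were compared. For the modal length, 9.56 became 6.42 with 5000 reads in every library and 7.36 with named starts. For mean length, 65.4 became 84.7 with named starts. For a mismatching last base, 58.9 became 66.5 with 500 reads, 46.8 with 5000 reads, 47.3 with starts of at least 90% single-locus reads and 37.4 with named starts. For the share within 10 bases, 58.4 became 70.2, 25.7, 54.6 and 32.5 under the same settings. For the coefficient of variation, 80.4 became 87.2, 84.5 and 89.6 with 5000 reads, single-locus starts and named starts. The cause was not tested. The mismatching first base, a measure added after seeing the data, stayed at 100, except for 99.9 with 500 reads, and exact alignments ranged from 0 to 9.58. The other arm is limited by depth and by the placing of mismatched reads only near exact ones. Depth also limits the minor starts, where a few reads decide the value.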
